A study of Mus musculus with 20 samples.

Results

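The 9 genes described here code for subunits of voltage-gated sodium channels in mouse dorsal root ganglia, and were picked from the 55416 genes of the count files by matching Ensembl IDs to gene symbols. They are Scn9a, Scn10a and Scn11a, whose channels are known from nociceptors; Scn1a, Scn8a, Scn2b and Scn4b, known from large myelinated sensory neurons; and Scn2a and Scn3a. Lumbar ganglia (levels L3 to L5) came from 10 adult C57Bl6 mice of both sexes, with a formalin and a noninjected library for each. Formalin is an irritant used to evoke inflammatory pain, and the labels state no dose. All of the mice carried floxed alleles of Prdm12 (labelled P12 Fl/Fl), a transcriptional regulator of the nociceptor lineage, and all were labelled as given tamoxifen (TAM), 1 month before sampling per the series text. The inducible conditional knockout (icKO) added a tamoxifen-activated Cre recombinase, written AdvCreERT2 in the sample labels and Rosa26CreERT2 in the series text, so whether the deletion was limited to sensory neurons cannot be told from these records. Controls had the floxed alleles and tamoxifen with no Cre named. By deposited name the icKO animals were 2 females and 3 males, and the controls 3 females and 2 males.

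The genotype word in the deposited name and the sample title differed for 4 of the 10 animals. Control 1 and control 4, by title, were deposited under an icKO name, and icKO 2 and icKO 3 were deposited under a control name. Prdm12 transcripts followed the deposited names: 23.5, 22.1, 23.3, 23.1 and 38.1 CPM (counts per 1000000, with library sizes scaled by the trimmed mean of M-values) in the noninjected icKO-named libraries of icKO 1, icKO 4, icKO 5, control 1 and control 4, against 98.8, 76.9, 96.6, 74.7 and 81.3 CPM in the control-named libraries of control 2, control 3, control 5, icKO 2 and icKO 3. Formalin libraries gave 15.7, 14.4, 28.1 and 26.1 CPM under icKO names and 104, 92.6, 99.96, 72.9 and 114 CPM under control names, and the groups did not overlap in either condition. The icKO-over-control log2 difference of animal totals was −1.96 by deposited name (exact two-sided permutation test over 252 splits, p = 0.00794) and −0.73 by title (exact p = 0.238). The library labelled icKO 1 formalin held only 2829 counts and was left out, which leaves 4 icKO-named and 5 control-named formalin libraries and 5 noninjected libraries of each. Results are grouped by deposited name, with the values by title and over the 6 animals whose records agree (icKO 1, icKO 4 and icKO 5 against control 2, control 3 and control 5) given where they bear on a result. Per-library values keep the order of animals given above, without icKO 1 in formalin libraries.

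Voltage-gated sodium channels open when a membrane depolarizes and carry the inward sodium current of the action potential. Each channel has a large pore-forming alpha subunit (Scn1a, Scn2a, Scn3a, Scn8a, Scn9a, Scn10a and Scn11a code for Nav1.1, Nav1.2, Nav1.3, Nav1.6, Nav1.7, Nav1.8 and Nav1.9) and smaller beta subunits (Scn2b and Scn4b here), which set gating and surface density. In sensory ganglia, Nav1.7 amplifies small depolarizations, Nav1.8 carries most of the tetrodotoxin-resistant current of nociceptor action potentials and Nav1.9 carries a persistent current near the resting potential, while Nav1.1 and Nav1.6 serve faster myelinated fibres.

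The 19 libraries held 11763893 to 22392635 counts assigned to genes, and 0.203 to 0.346% of them fell on the 9 genes. In the 10 listed pan-neuronal markers, the summed level was 7524 to 11280 CPM and none was at 0 in any library. Ganglia are mixed tissue, so in these bulk RNA values fewer cells of a type and less RNA per cell cannot be told apart. Nothing in the labels gives separate litters or sequencing batches. P-values from fits to the 19 libraries measure the spread between libraries, pooled over all groups. Those fits treat both libraries of an animal as separate, except where the animal is a block. P-values from animal totals measure the spread between the sampled animals. Log2 differences below are icKO over control, or formalin over noninjected, from edgeR's quasi-likelihood fit to the counts with sex as a covariate, and p-values are Benjamini-Hochberg adjusted over all genes that passed a filter on low counts, as all 9 members did.

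Per kilobase of annotated exon, Scn10a and Scn11a stood highest among the 9 genes over the 10 noninjected libraries, with mean levels of 126 and 99.6 CPM per kb and ranges that overlapped. Scn4b, the beta subunit linked to resurgent current, came next at 58.1 CPM per kb, then Scn9a at 47.3. Scn1a followed at 16.0, Scn8a at 12.6 and Scn2b at 11.01 CPM per kb. Scn2a, which codes for Nav1.2, stood at 2.46 CPM per kb, and Scn3a, the embryonic and injury-associated Nav1.3, at 0.843 CPM per kb. The ranges of Scn9a and Scn4b overlapped, as did those of Scn1a, Scn8a and Scn2b, whereas the steps below Scn9a, Scn2b and Scn2a had no overlap with the next gene. The spread across libraries differed as well: the coefficient of variation of the CPM level was 8.42% for Scn9a, 30.8% for Scn8a, 31.1% for Scn4b and 52.8% for Scn2b. Exon lengths came from an annotation of another genome build (GENCODE M21, GRCm38), and the libraries were not stranded. Without strand, reads of a member and of an overlapping gene cannot be told apart; such genes held few counts over all libraries, at most 642 for Gm13629 beside 194711 for Scn9a, and 301 for Gm10684 beside 15235 for Scn2b. The lowest gene, Scn3a, had 119 to 289 counts a library.

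Scn10a and Scn11a are neighbours on mouse chromosome 9, as are Scn2b and Scn4b. Across noninjected libraries, r of log2 CPM was 0.84 and 0.92 for these pairs. Scn9a, Scn1a, Scn2a and Scn3a also lie close together, on chromosome 2, with r from −0.13 (Scn9a with Scn2a) to 0.69 (Scn9a with Scn1a). Scn4b had its highest r among the members, 0.97, with Scn8a on chromosome 15. The 250 bases before RefSeq starts are shown for both chromosome 9 pairs and for Scn8a. Sequences are from RefSeq windows on GRCm38.p6, written 5′ to 3′ on the gene's strand, with CG dinucleotides in capitals. The windows are chr9:119719033-119719282 on the minus strand for Scn10a, chr9:119825457-119825706 on the minus strand for Scn11a, chr9:45117626-45117875 on the plus strand for Scn2b, chr9:45138374-45138623 on the plus strand for Scn4b, and chr15:100870395-100870644 on the plus strand for the first of 2 starts of Scn8a. GENCODE M21 places some gene starts elsewhere. By that annotation the Scn8a and Scn10a windows lie inside the gene, and the Scn2b and Scn4b windows run across its start. Only the Scn11a window lies wholly before the gene there.
Scn10a: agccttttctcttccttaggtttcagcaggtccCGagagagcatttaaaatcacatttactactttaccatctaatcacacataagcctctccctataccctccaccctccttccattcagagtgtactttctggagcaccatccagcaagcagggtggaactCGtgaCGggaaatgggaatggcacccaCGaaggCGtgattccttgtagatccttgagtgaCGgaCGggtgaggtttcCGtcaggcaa
Scn11a: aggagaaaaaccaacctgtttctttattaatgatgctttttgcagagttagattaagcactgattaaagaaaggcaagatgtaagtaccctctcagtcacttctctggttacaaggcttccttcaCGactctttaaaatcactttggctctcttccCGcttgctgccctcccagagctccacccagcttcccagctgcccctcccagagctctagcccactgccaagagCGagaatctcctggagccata
Scn2b: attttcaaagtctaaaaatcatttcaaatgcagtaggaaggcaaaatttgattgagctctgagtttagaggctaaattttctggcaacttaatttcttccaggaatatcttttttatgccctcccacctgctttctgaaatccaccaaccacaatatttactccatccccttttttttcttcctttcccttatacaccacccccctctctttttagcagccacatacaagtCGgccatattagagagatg
Scn4b: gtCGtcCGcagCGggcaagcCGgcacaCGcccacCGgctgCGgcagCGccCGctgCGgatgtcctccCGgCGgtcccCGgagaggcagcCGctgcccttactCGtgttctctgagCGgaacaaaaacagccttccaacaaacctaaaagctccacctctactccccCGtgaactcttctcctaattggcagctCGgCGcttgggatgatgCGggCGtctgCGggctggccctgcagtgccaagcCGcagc
Scn8a: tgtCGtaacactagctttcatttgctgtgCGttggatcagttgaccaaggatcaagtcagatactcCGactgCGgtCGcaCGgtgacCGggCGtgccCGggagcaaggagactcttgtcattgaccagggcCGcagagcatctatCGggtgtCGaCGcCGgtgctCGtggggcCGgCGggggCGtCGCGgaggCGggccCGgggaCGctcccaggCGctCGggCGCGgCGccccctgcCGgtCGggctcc
The neighbours differed in composition. Scn10a and Scn11a had 8 and 3 CG dinucleotides, close to the median of 6 over 32807 mouse windows of this length, while Scn4b had 23 and Scn2b had 1. The first Scn8a start had 30, and its GC content was 68.0%, against 66.0% for Scn4b, 38.4% for Scn2b and a median of 52.4% over all windows. On both strands, the RUNX core TGTGGT occurred once in the Scn2b window, as in 14.04% of all windows, and the CCAAT box occurred once in the Scn4b window, as in 33.84%. The GC box GGGCGG (32.73% of all windows) and the homeodomain core TAATTA (4.847%) had no match in the 10 windows of the 8 genes with an entry. None of these motif strings contains another.

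**Figure D1:**
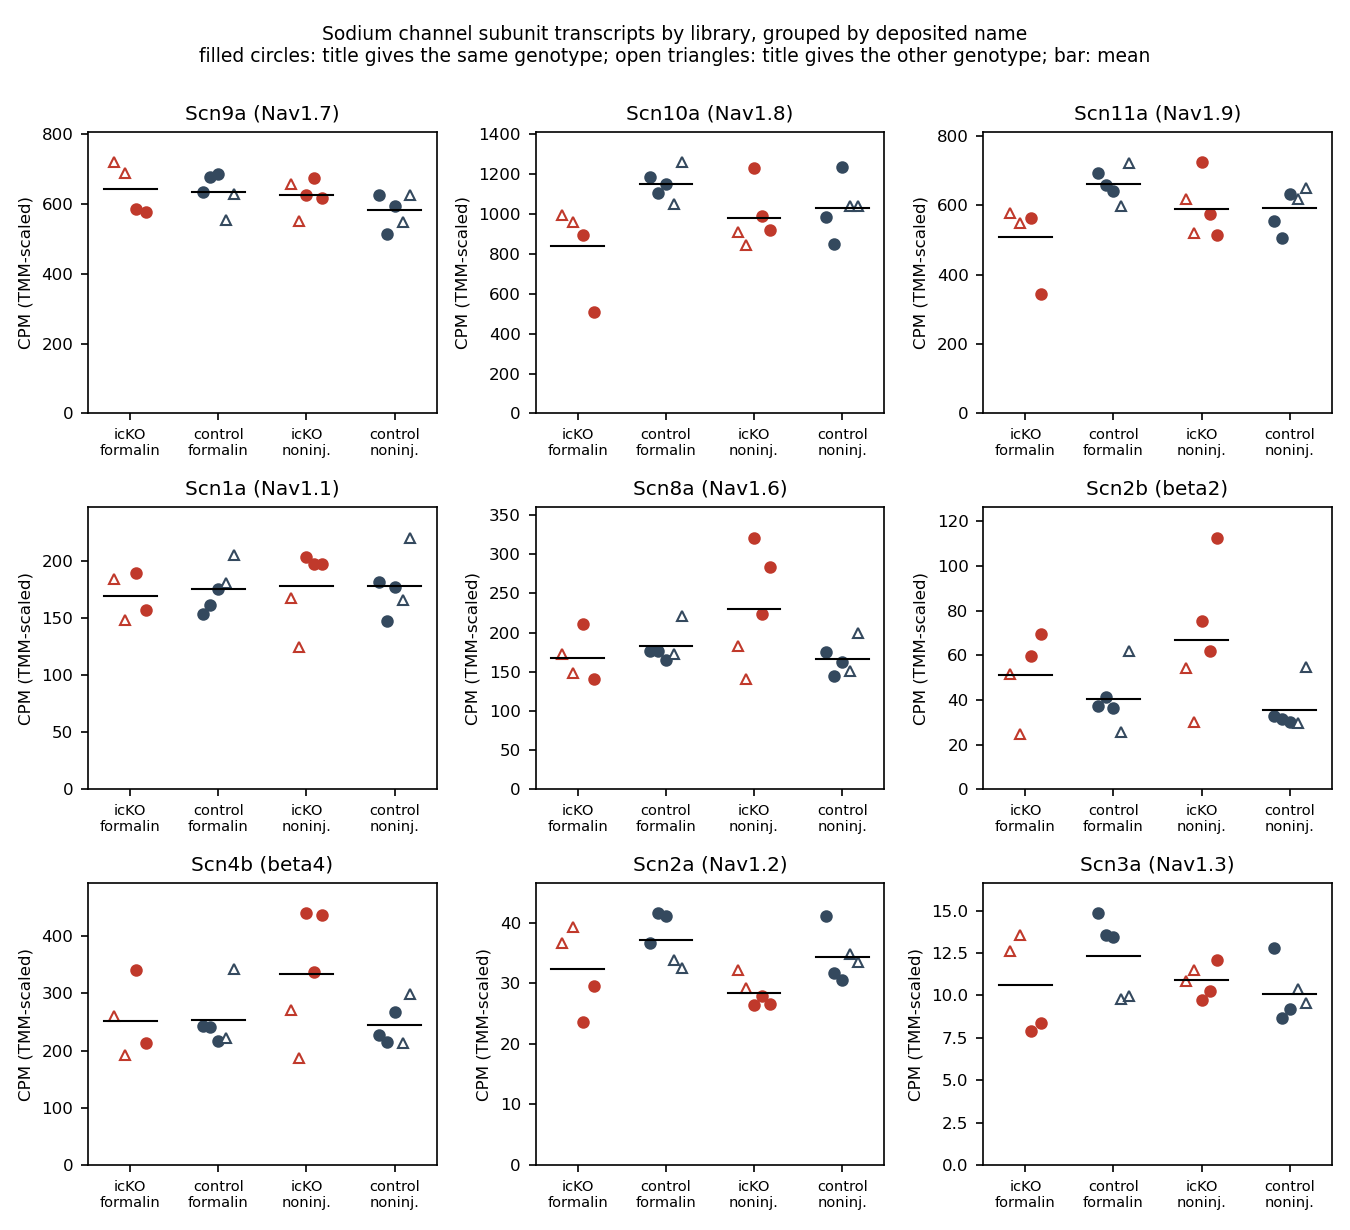
Transcript level of each of the 9 subunit genes (TMM-scaled CPM, linear axes from 0) in 19 libraries grouped by deposited name and condition; bars are group means, filled circles mark animals whose title gives the same genotype and open triangles those whose title gives the other. Scn10a and Scn11a of the icKO-named formalin libraries lie below the control-named ones, with icKO 5 lowest at 509.9 and 345 CPM, and Scn8a, Scn2b and Scn4b spread most among the icKO-named noninjected libraries.

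In noninjected ganglia the log2 differences of the 3 nociceptor subunits lay between −0.05 and 0.11. Scn10a had 1232, 989, 919, 911 and 843 CPM in icKO-named libraries and 984, 849, 1235, 1042 and 1041 CPM in control-named libraries. Scn11a had 725, 574, 514, 616 and 518 CPM in icKO-named libraries, against 555, 505, 632, 617 and 648 CPM in control-named libraries. The icKO 1 library was the highest for Scn11a and just under control 5 for Scn10a, and the groups overlapped for both genes. The log2 difference was −0.05 (SE 0.14, 95% interval −0.35 to 0.25, edgeR adjusted p = 0.848) for Scn10a and 0.02 (SE 0.11, 95% interval −0.22 to 0.26, edgeR adjusted p = 0.920) for Scn11a. Scn9a had 627, 675, 617, 658 and 552 CPM in icKO-named libraries and 626, 515, 595, 550.0 and 626 CPM in control-named libraries. Its groups overlapped too, with a log2 difference of 0.11 (SE 0.09, 95% interval −0.07 to 0.29, edgeR adjusted p = 0.423). The intervals leave room for a difference as low as −0.35 for Scn10a and as high as 0.29 for Scn9a on the log2 scale.

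After formalin, Scn10a and Scn11a stood lower in the icKO-named ganglia without passing the test, while Scn9a averaged 644 ± 72.1 CPM in icKO-named (n = 4) and 636 ± 52.7 CPM in control-named libraries (SD, n = 5). Scn10a had 896, 509.9, 996 and 961 CPM in icKO-named libraries, against 1185, 1104, 1151, 1052 and 1263 CPM in control-named libraries. Scn11a had 564, 345, 578 and 549 CPM in icKO-named libraries, against 691, 659, 639.6, 597 and 720.3 CPM in control-named libraries. Every icKO-named library was below every control-named one for both genes, and the icKO 5 library was far below the rest. Such a gap without overlap occurred in 2 of the 9 genes, and in 2.64% of the 17931 genes tested in this direction. The log2 difference was −0.42 (SE 0.15, 95% interval −0.74 to −0.09, edgeR adjusted p = 0.148) for Scn10a and −0.33 (SE 0.12, 95% interval −0.58 to −0.07, edgeR adjusted p = 0.157) for Scn11a. When the icKO 5 formalin library was left out, a choice made after its values were seen, the differences became −0.26 (edgeR adjusted p = 0.319) and −0.20 (adjusted p = 0.374). Scn9a had 587, 579, 722 and 689 CPM in icKO-named libraries and 634, 677, 687, 554 and 628 CPM in control-named libraries, with overlap and a log2 difference of 0.03 (SE 0.09, 95% interval −0.16 to 0.22, edgeR adjusted p = 0.907).

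Other tissue measures moved beside this formalin comparison. The 16 nociceptor marker genes other than the sodium channels summed to 4110 to 5597 CPM in icKO-named and 5317 to 6263 CPM in control-named formalin libraries, and 3 of them passed the test as lower, among them Ret, a receptor of GDNF family ligands, at −0.66 (edgeR adjusted p = 0.0274), and Gfra3, the artemin co-receptor, at −1.24 (adjusted p = 0.0416) on the log2 scale. Erythroid markers summed to 417 to 1810 CPM in icKO-named and 156 to 344 CPM in control-named libraries, with 7 of 8 called higher. Neutrophil markers summed to 762 to 3520 CPM in icKO-named and 195 to 916 CPM in control-named libraries, with 2 of 8 called higher. Muscle markers summed to 14.9 to 2174 CPM in icKO-named and 13.5 to 33.3 CPM in control-named libraries, with 3 of 11 tested called higher. The high muscle sums were those of icKO 5 (2174 CPM) and control 4 (362 CPM), while icKO 4 had 38.0 and control 1 had 14.9 CPM. Fibroblast markers summed to 1776 to 6467 CPM in icKO-named and 1466 to 2577 CPM in control-named libraries, with 2 of 8 called higher and all 8 above 0 in log2 difference. Mitochondrially encoded genes took 3.86 to 8.75% of counts in icKO-named and 3.80 to 6.76% in control-named formalin libraries. Pan-neuronal markers summed to 7524 to 9757 CPM in icKO-named and 9239 to 10470 CPM in control-named libraries, with 0 of 10 called. Of all genes tested in this comparison, 2.85% were called higher and 1.04% lower. The part of these measures in the Scn10a and Scn11a differences was not tested. Over the 6 animals whose records agree, with 2 icKO and 3 control formalin libraries, the log2 differences were −0.65 (edgeR adjusted p = 0.0994) for Scn10a and −0.48 (edgeR adjusted p = 0.140) for Scn11a.

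In noninjected ganglia the largest log2 differences among the 9 genes were those of Scn2b, Scn8a and Scn4b, all subunits of large myelinated neurons. Scn2b, the beta2 subunit, had 75.4, 62.1, 113, 54.1 and 30.2 CPM in icKO-named libraries, against 32.8, 31.2, 29.97, 29.7 and 54.6 CPM in control-named libraries. Scn8a, which codes for the Nav1.6 of nodes of Ranvier, had 321, 223, 284, 182 and 140.2 CPM in icKO-named libraries, against 175, 144, 163, 151 and 199 CPM in control-named libraries. For Scn4b the values were 440.1, 337, 437, 271 and 188 CPM in icKO-named libraries and 228, 215, 267, 213 and 298 CPM in control-named libraries. For each of these genes icKO 1, icKO 4 and icKO 5, the animals called icKO in both records, were the 3 highest libraries, while control 1 and control 4 lay within or below the control-named range. The icKO-over-control fold was 1.91 for Scn2b, 1.41 for Scn8a and 1.39 for Scn4b, that is log2 0.93 (SE 0.35, 95% interval 0.19 to 1.67, edgeR adjusted p = 0.102), 0.50 (SE 0.17, 95% interval 0.13 to 0.86, edgeR adjusted p = 0.0786) and 0.48 (SE 0.21, 95% interval 0.03 to 0.92, edgeR adjusted p = 0.164) in that order of genes. Scn1a, which codes for Nav1.1, had 204, 197, 197, 168 and 125 CPM in icKO-named libraries and 181, 147, 177, 166 and 220.4 CPM in control-named libraries. Its highest library was icKO 3 and its lowest control 4, and the log2 difference was 0.03 (SE 0.12, 95% interval −0.23 to 0.28, edgeR adjusted p = 0.910).

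By deposited name, edgeR's quasi-likelihood test thus called 0 of the 9 subunit genes in noninjected ganglia at an adjusted p of 0.05, where it called 8.39% of 17931 genes (4.81% higher and 3.57% lower). At an unadjusted p under 0.05 there were 4 of the 9 (Scn8a, Scn2b, Scn4b and Scn2a), beside 26.4% of all genes, and DESeq2 called Scn8a and Scn2b, beside 12.6% of all genes. The median log2 difference of the 4 large-fibre subunits was 0.49, against 0.02 for the 3 nociceptor subunits and −0.01 for all genes tested. Over the 6 animals whose records agree, all of the icKO noninjected libraries were above all controls for Scn8a, Scn2b, Scn4b and Scn1a, 4 of 9 genes beside 14.3% of genes, and 3 passed the test, beside 4.7% of 17669 genes. Scn2b rose there by log2 1.424 (SE 0.18, edgeR adjusted p = 0.00547), Scn8a by 0.79 (SE 0.15, adjusted p = 0.0180) and Scn4b by 0.78 (SE 0.17, adjusted p = 0.0267), while Scn1a was at 0.26 (edgeR adjusted p = 0.172). Those calls rested on few animals: leaving out control 2, control 3 or control 5 left 0 members called, leaving out icKO 1 left 1 (Scn2b), and leaving out icKO 4 or icKO 5 left all 3. By title, 0 of 17671 genes passed, with an unadjusted p under 0.05 in 8.7% of genes and in 4 of the 9 members, and Scn8a was at 0.53 (edgeR adjusted p = 0.549).

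The icKO 1, icKO 4 and icKO 5 libraries also stood apart in other measures. The 14 large-fibre marker genes summed to 11945, 10038 and 11232 CPM in icKO 1, icKO 4 and icKO 5, and to 6473 to 9083 CPM in the other noninjected libraries. Of these 14 markers, none at 0 in any library, 2 passed the test as higher by deposited name: Ntrk3, the neurotrophin-3 receptor, at 0.72 (edgeR adjusted p = 0.00828) and Kcns1, a potassium channel subunit, at 0.82 (adjusted p = 0.0208). The median log2 difference of the 14 was 0.21, with 10 above 0 and 4 below, down to −0.56. A single Ensembl ID without a name in the annotation used took 3.82, 1.72 and 2.67% of the counts of icKO 1, icKO 4 and icKO 5, and 0.318 to 1.25% of the other noninjected libraries. Of 16 nociceptor markers other than the channels, 3 were called higher in icKO-named noninjected libraries (Sst, Calcb and Lpar3), as was 1 of 10 pan-neuronal markers (Syt1), while 3 of 12 Schwann cell markers were called lower. Of all genes tested in this comparison, 4.81% were called higher and 3.57% lower. Mitochondrially encoded genes took 3.06 to 4.35% of counts in icKO-named and 4.46 to 6.85% in control-named noninjected libraries. Without the noninjected libraries of icKO 1 and icKO 5, an alternative added after seeing the data, the log2 differences by deposited name were 0.50 for Scn2b, 0.17 for Scn8a and 0.15 for Scn4b. The part of these measures in the subunit differences was not tested.

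In formalin libraries the log2 differences of the large-fibre subunits lay between −0.06 and 0.38. Scn2b had 59.6, 69.6, 51.4 and 24.7 CPM in icKO-named libraries, against 37.5, 41.2, 36.2, 25.4 and 62.0 CPM in control-named libraries, with overlap and a log2 difference of 0.38 (SE 0.37, 95% interval −0.40 to 1.17, edgeR adjusted p = 0.625). Scn8a had 211, 140.1, 172 and 149 CPM in icKO-named libraries and 176, 176, 165, 173 and 221 CPM in control-named libraries. The icKO 5 animal, among the highest for Scn8a in its noninjected library, was here the lowest, and the log2 difference was −0.06 (SE 0.19, 95% interval −0.46 to 0.34, edgeR adjusted p = 0.903). Scn4b had 340.4, 213, 261 and 193 CPM in icKO-named libraries and 243, 241, 218, 221 and 343 CPM in control-named libraries. Its highest values were those of icKO 4 and icKO 3, 1 in each group, and the log2 difference was 0.04 (SE 0.23, 95% interval −0.45 to 0.52, edgeR adjusted p = 0.954). Scn1a averaged 169.7 ± 19.99 CPM in icKO-named (n = 4) and 175 ± 19.96 CPM in control-named libraries (SD, n = 5), a log2 difference of −0.00082 (SE 0.13, 95% interval −0.28 to 0.28, edgeR adjusted p = 0.998). By deposited name 0 of the 9 genes passed edgeR's test in formalin libraries, where 3.89% of 17931 genes did (2.85% higher and 1.04% lower), and 2 (Scn10a and Scn11a) had an unadjusted p under 0.05, beside 18.6% of genes. DESeq2 also called 0 of the 9, beside 6.82% of genes. Over the 6 agreeing animals 3 of 9 passed, beside 9.14% of genes: Scn2b rose by log2 0.75 (edgeR adjusted p = 0.0461), Scn2a fell by 0.55 (adjusted p = 0.0385) and Scn3a fell by 0.71 (adjusted p = 0.0291). None of these calls held without control 3 or without control 5, and the set of called members ranged from 0 to 3 genes as each of the 6 animals was left out.

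Scn2a, and in formalin libraries Scn3a, stood low in the animals called icKO in both records. In noninjected ganglia Scn2a had 26.4, 27.8, 26.6, 32.1 and 29.2 CPM in icKO-named libraries, against 41.1, 31.6, 30.5, 34.8 and 33.5 CPM in control-named libraries, a log2 difference of −0.26 (SE 0.12, 95% interval −0.51 to −0.0047, edgeR adjusted p = 0.182). The 3 animals called icKO in both records were the lowest of the 10 libraries. In formalin libraries Scn2a had 23.7, 29.6, 36.6 and 39.2 CPM under icKO names and 36.7, 41.5, 41.1, 33.9 and 32.6 CPM under control names, and icKO 4 and icKO 5 were again the lowest. Scn3a had 7.92, 8.35, 12.6 and 13.6 CPM in icKO-named formalin libraries, against 14.8, 13.5, 13.4, 9.77 and 9.95 CPM in control-named ones, a log2 difference of −0.20 (SE 0.17, 95% interval −0.56 to 0.16, edgeR adjusted p = 0.576). Within the control-named group icKO 2 and icKO 3 were the lowest for Scn3a, and within the icKO-named group control 1 and control 4 were the highest. Grouped by title, Scn3a formalin libraries therefore did not overlap, nor did those of Scn2a and Scn9a, 3 of 9 genes lower beside 1.17% of genes, with log2 differences of −0.61 (edgeR adjusted p = 0.366), −0.41 and −0.22. By title edgeR called no gene of 17671 in formalin libraries, and 12.6% of genes and 3 of the 9 members had an unadjusted p under 0.05. In noninjected libraries Scn3a averaged 10.9 ± 0.934 CPM in icKO-named and 10.1 ± 1.61 CPM in control-named animals (SD, n = 5 each), a log2 difference of 0.12 (SE 0.16, 95% interval −0.22 to 0.46, edgeR adjusted p = 0.678).

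**Figure D2:**
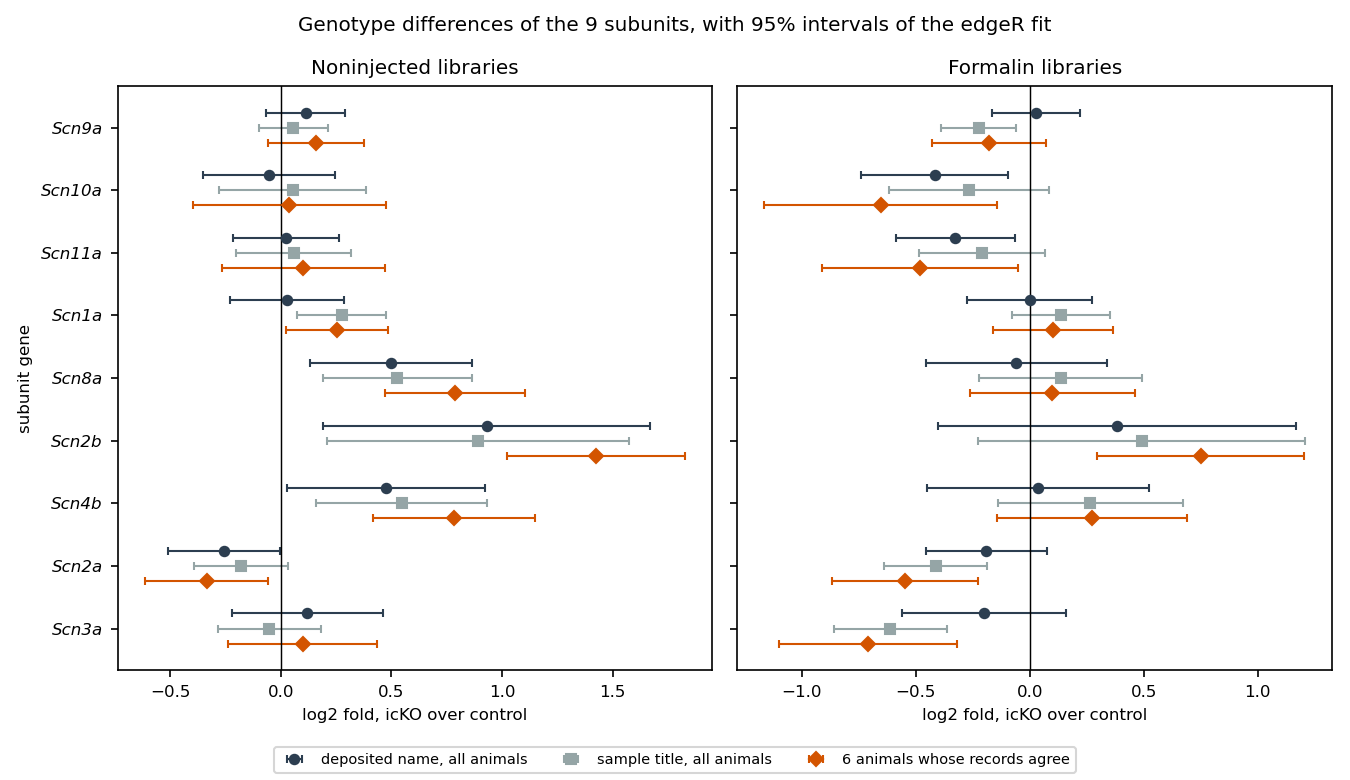
Log2 fold of icKO over control for each subunit gene, with 95% intervals of the edgeR fit, in noninjected (left) and formalin (right) libraries; circles group all animals by deposited name, squares by sample title, and diamonds use the 6 animals whose records agree. Scn2b lies at 0.93 by deposited name and 1.424 in the 6 animals in noninjected libraries, and Scn3a in formalin libraries at −0.20 by deposited name and −0.61 by title.

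With the libraries of an animal summed, the icKO-named and control-named groups overlapped for all 9 genes. The total of icKO 1 held its noninjected library alone, so condition was not balanced between the groups. That total was the highest for Scn8a and Scn4b, at 318 and 435 CPM. The log2 differences of the totals were 0.72 (edgeR adjusted p = 0.303) for Scn2b, 0.33 (edgeR adjusted p = 0.348) for Scn8a, 0.35 (edgeR adjusted p = 0.384) for Scn4b and −0.26 (edgeR adjusted p = 0.222) for Scn2a. Scn10a, Scn11a, Scn9a, Scn1a and Scn3a lay at −0.18, −0.10, 0.06, 0.03 and −0.06. None of the 9 passed edgeR's test, 1 (Scn2a) had an unadjusted p under 0.05, beside 16.9% of genes, and 1.08% of 19441 genes were called; DESeq2 called 0 of the 9 and 4.15% of genes. By title none passed either, while 6 of the 9 had an unadjusted p under 0.05, beside 9.34% of genes, and Scn3a at −0.33 (edgeR adjusted p = 0.425) was lower without overlap, as were 0.916% of genes. Over the 6 agreeing animals edgeR called Scn2b, at 1.11 (adjusted p = 0.0320), and no other member, beside 0.897% of genes; Scn4b was at 0.61 (adjusted p = 0.0605) and Scn8a at 0.54 (adjusted p = 0.0804). Scn2b did not pass without control 2, control 3, control 5 or icKO 1. By deposited name, the log2 differences of the totals were 0.11 for Scn8a and 0.17 for Scn4b without icKO 1.

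Set against each other within a library, the nociceptor subunits outweighed the large-fibre subunits by less in the icKO-named animals, with wide overlap. The summed CPM of Scn9a, Scn10a and Scn11a over that of Scn1a, Scn8a, Scn2b and Scn4b was 2.48, 2.73, 1.99, 3.23 and 3.96 in noninjected icKO-named libraries, with a mean of 2.88 ± 0.754 (SD, n = 5), and averaged 3.56 ± 0.377 (n = 5) in control-named ones, where it ran from 3.00 to 3.95. The lowest 3 ratios belonged to the animals called icKO in both records, and control 4 had the highest of all. In noninjected libraries the nociceptor sum averaged 2194 ± 251 CPM in icKO-named and 2204 ± 219.5 CPM in control-named animals. The large-fibre sum averaged 809.9 ± 238 CPM in icKO-named and 625 ± 92.0 CPM in control-named animals, so the gap in these means lay there. After formalin the ratio averaged 3.19 ± 0.847 (n = 4) in icKO-named and 3.81 ± 0.419 (n = 5) in control-named libraries. In formalin libraries the nociceptor sum averaged 1994 ± 387 CPM under icKO names, with icKO 5 lowest at 1434 CPM. Under control names it averaged 2448 ± 151 CPM. The large-fibre sum averaged 641 ± 124 and 651 ± 101 CPM in that order, so the gap in the formalin means lay in the nociceptor sum. In animal totals the log2 ratio differed by −0.35 by deposited name and by −0.44 by title, by −0.32 without Scn2b, and by −0.40 when the mean of the genes' log values was used. No test was made of this ratio, because its members were picked with results of these data known.

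**Figure D3:**
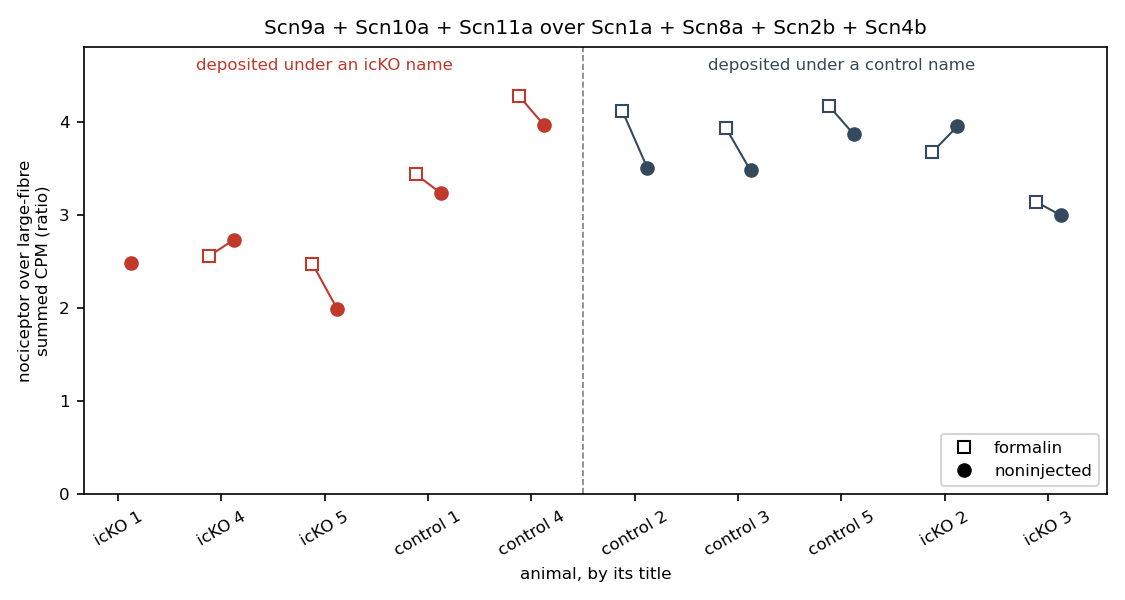
Ratio of the summed CPM of the 3 nociceptor subunits to that of the 4 large-fibre subunits in each animal, with formalin (open squares) left of noninjected (filled circles) and a line joining the libraries of an animal; icKO-named animals are on the left, and the axis starts at 0. The animals icKO 1, icKO 4 and icKO 5 have noninjected ratios of 2.48, 2.73 and 1.99, below the other 7 animals.

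Each animal's formalin and noninjected libraries address formalin within each genotype; the differences first given compare the groups without the pairing and include the noninjected library of icKO 1. In control-named animals the log2 difference of Scn3a was 0.28 (SE 0.16, 95% interval −0.05 to 0.62, edgeR adjusted p = 0.951). Scn11a was at 0.17, Scn10a at 0.16, Scn9a and Scn8a at 0.13 each, Scn2b at 0.19, Scn2a at 0.12, Scn4b at 0.05 and Scn1a at −0.02. In icKO-named animals the difference was −0.42 (edgeR adjusted p = 0.182) for Scn8a, −0.39 (edgeR adjusted p = 0.298) for Scn4b, −0.36 for Scn2b, −0.20 for Scn10a, −0.18 for Scn11a and 0.19 for Scn2a, and lay from −0.05 to 0.05 for Scn1a, Scn3a and Scn9a. With the animal as a block they were −0.27 (adjusted p = 0.311) for Scn8a, −0.26 (adjusted p = 0.373) for Scn4b and −0.28 (adjusted p = 0.217) for Scn2b. In neither group did edgeR call any gene of 17931, members included, with an unadjusted p under 0.05 in 23.3% of genes in icKO-named and 3.83% in control-named animals; DESeq2 called 6.25% of genes in icKO-named and 0% in control-named animals. Animals differed: between formalin and noninjected libraries of icKO 5, Scn8a differed by −1.02, Scn4b by −1.04, Scn10a by −0.85 and Scn11a by −0.58 on the log2 scale, and no other animal had a drop that deep in these genes. The formalin library of icKO 5 also had 2174 CPM of muscle markers against 26.2 CPM in its noninjected library, 6467 against 3304 CPM of fibroblast markers, 8.75 against 4.35% of mitochondrially encoded counts, and 7524 against 9541 CPM of pan-neuronal markers. Their part in these differences was not tested. Scn2b was lower after formalin in 4 of 4 icKO-named animals (mean −0.28 ± 0.30, SD) and higher in 4 of 5 control-named animals (0.16 ± 0.23). Scn8a was lower in 3 of 4 icKO-named animals and higher in 5 of 5 control-named ones. Some of these differences were small: 0.0035 in control 2, 0.019 in control 5, and −0.08 in both control 1 and icKO 4. Scn9a was also higher in 5 of 5 control-named animals. The test of the difference between those formalin effects gave −0.56 (edgeR adjusted p = 0.196) for Scn8a, −0.35 (edgeR adjusted p = 0.211) for Scn11a and −0.55 (edgeR adjusted p = 0.515) for Scn2b, with no gene of 17931 called by edgeR, an unadjusted p under 0.05 in 23.4% of genes, and 4.74% of genes called by DESeq2. With the animal as a block the difference for Scn2b was −0.45 (adjusted p = 0.131), for Scn8a −0.41 (adjusted p = 0.235) and for Scn11a −0.32 (adjusted p = 0.205), and no gene was called.

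**Figure D4:**
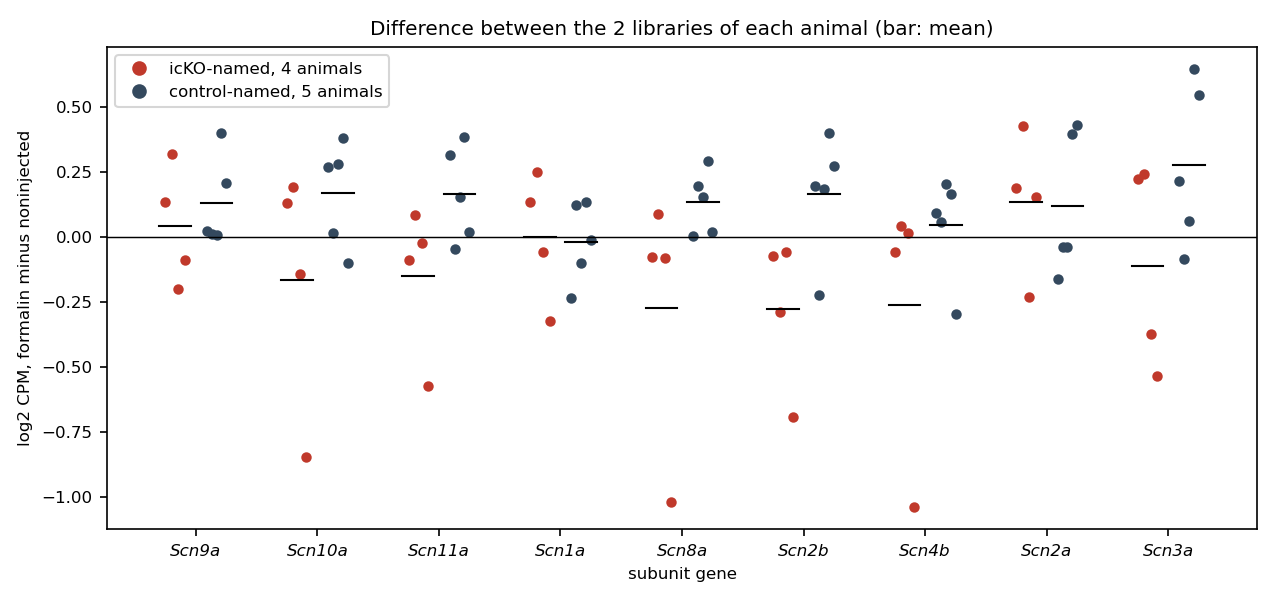
Log2 CPM of the formalin library minus the noninjected library of the same animal for each subunit gene, in 4 icKO-named and 5 control-named animals, with the mean as a bar. Scn2b lies below 0 in all 4 icKO-named animals, with a mean of −0.28, and has a mean of 0.16 in control-named animals; the lowest points of Scn8a, Scn4b, Scn10a and Scn11a are all icKO 5.

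Among themselves, some of the genes varied together over libraries. Over the 10 noninjected libraries Pearson's r of log2 CPM was 0.97 for Scn8a with Scn4b, 0.92 for Scn2b with Scn4b and 0.91 for Scn8a with Scn2b. Over the 9 formalin libraries these were 0.93, 0.63 and 0.32. Scn10a and Scn11a had r = 0.84 over noninjected and 0.99 over formalin libraries, and icKO 5 was the lowest formalin library for both. Scn2a and Scn3a had r = 0.22 over noninjected and 0.89 over formalin libraries. In noninjected libraries Scn2a ran against Scn8a, Scn2b and Scn4b, with r of −0.57, −0.61 and −0.63. With Scn1a, the remaining large-fibre subunit, r was −0.09. These values are descriptions across libraries that share animals, tissue makeup and the scaling to total counts.

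**Figure D5:**
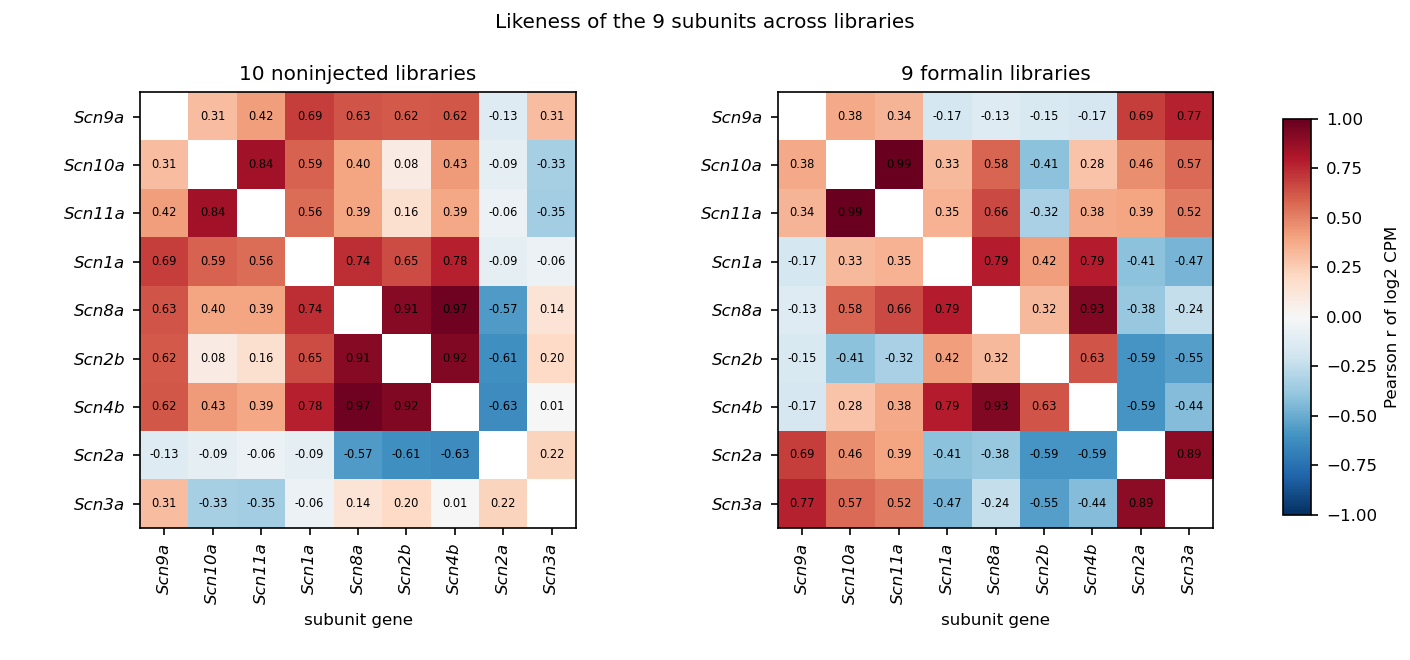
Pearson's r of log2 CPM between each pair of subunit genes over 10 noninjected (left) and 9 formalin (right) libraries, from −1 in blue to 1 in red. Scn8a, Scn2b and Scn4b form a block with r of 0.91 to 0.97 in noninjected libraries, and Scn10a with Scn11a reaches 0.99 in formalin libraries.

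Ranked by r over the 10 noninjected libraries among 10959 well-expressed genes, the closest matches of Scn4b were Syt2, a fast synaptic calcium sensor, and Slc17a7, the vesicular glutamate transporter VGLUT1, both at r = 0.99. Slc17a7 was also among the closest to Scn8a (0.99), with Camta1 (0.99). Scn2b was closest to Phactr2 and Meis2 (0.95 each) and Scn1a to Ndst4 and Slc24a2 (0.98 each). Scn10a was closest to Kcnd1, a subunit of A-type potassium channels (0.95), and Scn11a to Mrgprd, a receptor of nonpeptidergic nociceptors (0.94). Scn9a was closest to Fech (0.93), Scn2a to Zfp606 (0.94) and Scn3a to Abl1 (0.88). These matches are the highest of 10959 r values over only 10 libraries. How high r would reach in such a search among unrelated genes was not tested, so they are descriptions only. The next match of Scn11a, Pitrm1, was also at 0.94. With Prdm12 itself, r over these libraries was −0.74 for Scn2b, −0.63 for Scn8a, −0.60 for Scn4b and 0.73 for Scn2a, and within −0.50 and 0.16 for the other 5 genes. Prdm12 levels did not overlap between icKO-named and control-named libraries, so these r values in part repeat the genotype comparison and are no separate result. With the share of the unnamed ID, r was 0.81 for Scn8a, 0.78 for Scn2b and 0.72 for Scn4b.

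The files hold other sodium channel genes and their partners. In noninjected ganglia the beta subunit gene Scn3b was at a log2 difference of 0.28 (edgeR adjusted p = 0.101). Scn7a, a sodium-sensing relative found in glia and sensory neurons, was at −0.13 (edgeR adjusted p = 0.228), and Scn4a at 0.18. Among 17 tested genes for channel partners and trafficking, 2 were called lower in noninjected icKO-named ganglia. Of all genes tested, 3.57% were called lower and 8.39% in either direction. The 2 were S100a10, the annexin partner that brings Nav1.8 to the membrane, lower by log2 0.29 (edgeR adjusted p = 0.0413), and Scnm1, named as a modifier of Scn8a, lower by 0.28 (adjusted p = 0.0434). None of the 17 passed in formalin libraries or in animal totals, where Ank3, the ankyrin that anchors channels at nodes, was at −0.30 (adjusted p = 0.231) in formalin libraries.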

How the data were processed

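Polyadenylated RNA of lumbar dorsal root ganglia was sequenced from non-stranded libraries, per the labels' protocols. The authors deposited counts of reads per Ensembl gene for each library; the submitters' processing notes name the GRCm39 build and, among tools, featureCounts 2.0.1, the aligner STAR in version 2.7.8a and bcl2fastq (2.20.0.422). No normalization was found in the deposited counts, which are whole numbers with differing totals. Of the 55416 IDs, 52083 (93.99%) matched a name in GENCODE M21, an annotation of GRCm38, and all 149 listed genes were found. Of the 20 libraries, 1 with under 1000000 counts was left out; the smallest chi-square per degree of freedom between libraries of a title group was 7.73, so none repeated another.

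Counts were scaled by TMM and fitted in edgeR 4.0.16 (R 4.3.3, limma 3.58.1) with robust quasi-likelihood, filterByExpr, 4 groups of genotype and condition sharing the spread, and sex as a covariate. Per-animal totals were fitted likewise. P-values were adjusted by Benjamini-Hochberg over all genes tested. Genotype followed the word in the deposited name. DESeq2 1.42.0, size factors by RLE, no filter, no sex term, fits of the compared groups only, each animal left out, the title grouping and the 6 agreeing animals were alternatives. Per-library CPM were TMM-scaled, and likeness was taken on log2(CPM + 0.5). The scripts were tested on simulated counts.

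The formalin and noninjected libraries of an animal share its number in the labels, so they are paired by animal; deviations from group means correlated with r of 0.0662 to 0.573 in the 9 pairs. Genes named were the 9 members, other channel genes and those of the listed partners and markers that passed; some of these are not reported here. The members and lists were chosen with earlier results of these data known. Intervals cover the spread between libraries as the model estimates it, with both libraries of an animal treated as separate.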

Additional observations from a re-analysis of the deposited data

Results flagged for a closer look

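Among 60 sets of 4 or 5 values (the 9 subunit genes and Prdm12, by deposited name, in each condition and in animal totals), 8 had an end value whose gap to its neighbour exceeded Dixon's 95% critical value for the group's range, a rule that chance alone meets in about 5% of groups. The library of icKO 5 after formalin had 345 CPM of Scn11a, and the next icKO-named library had 549 CPM. Control 1, deposited under an icKO name, had 695 CPM of Scn9a in its total, and the next icKO-named animal 620.0 CPM. Of the 8, 5 were high values of icKO 3, an animal deposited under a control name: 221 CPM of Scn8a after formalin (next 176), 54.6 CPM of Scn2b without injection (next 32.8), 58.3 CPM of Scn2b in its total (next 35.7), 343 CPM of Scn4b after formalin (next 243) and 321 CPM of Scn4b in its total (next 241). Prdm12 stood at 38.1 CPM in the noninjected library of control 4, with the next icKO-named library at 23.5 CPM. The causes were not tested.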

How the results depend on the processing

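By deposited name none of the 9 genes was called in any comparison, so no call could reverse. Uncalled log2 differences changed sign in 24 alternative values for genotype in noninjected libraries, 43 in formalin libraries, 15 in animal totals, 19 for formalin in icKO-named animals, 11 in control-named animals and 16 for the interaction. Of the alternative values by comparison, 206 of 225 for genotype in noninjected libraries, 219 of 234 in formalin libraries, 215 of 225 in animal totals, 236 of 243 for formalin in icKO-named animals, 225 of 225 in control-named animals and 226 of 234 for the interaction stayed on their side of the threshold. The number of the 9 genes called, 0 by deposited name, was 3, 3 and 1 over the 6 agreeing animals (noninjected, formalin and totals), and 2 with DESeq2 in noninjected libraries. Without a filter on low counts it was 3 in each of those 3 comparisons, for formalin in icKO-named animals and for the interaction. The estimates hardly moved there while their SE shrank: Scn2b in noninjected libraries stayed at log2 0.93, with an SE of 0.098 in place of 0.35. Leaving out each animal, in all 10 or in the 6, gave 0 to 3 genes in noninjected libraries, formalin libraries and totals, 0 to 4 for formalin in icKO-named animals, 0 to 5 for the interaction and 0 to 0 in control-named animals; the counts of 4 and 5 came without icKO 4 among the 6, with 1 icKO formalin library assumed to vary like the other groups. With all animals by deposited name, Scn8a passed in noninjected libraries without control 1, and Scn8a, Scn2b and Scn4b without control 4. Prdm12 moved to −0.73 by title. With the animal as replicate block, 0 subunit genes passed for formalin in icKO-named animals, in control-named animals or in the interaction, where Scn2b was at −0.45 (edgeR adjusted p = 0.131); the block changed no call. All genes called numbered 1504, 697 and 209 by deposited name (noninjected, formalin, totals), 2261, 1223 and 806 with DESeq2, 2421, 2129 and 1811 without a filter, 0 by title, and 17 to 2129, 66 to 3360 and 8 to 621 as animals were left out. Fitting only the groups compared gave 1175 and 29 genes (noninjected, formalin), 159 genes were called in noninjected libraries without those of icKO 1 and icKO 5, and 205 in formalin libraries without that of icKO 5. The causes were not tested.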
